A study of Mus musculus with 8 samples.

Results

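The 9 genes described here belong to the cytosolic RNA-sensing pathway and were followed in mouse embryonic fibroblasts (MEFs), connective tissue cells taken from embryos and grown in culture. They were picked by symbol, as the helicase sensors Ddx58 (RIG-I), Ifih1 (MDA5), Dhx58 (LGP2) and Ddx60, the adaptor Mavs, and the regulators Rnf135, Rnf125, Traf3 and Nlrx1. All 9 symbols were found among the 24015 in the count tables. The cells were wild type, on a C57bl/6 background, from E12.5 embryos, at passages 15 to 18. One group was left untreated (2 libraries), and the other was given 100 units/mL of murine recombinant interferon-beta (IFN-beta) for 6 h (2 libraries). The series is about a mouse line with HA-tagged histone H3.3, and its chromatin samples were not analysed here. The labels number the libraries of a group without stating whether each was its own culture. The p-values therefore reflect the library-to-library spread alone, and that spread may be technical.

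RIG-I-like receptors are helicases of the cytosol that bind double-stranded RNA made during viral infection. RIG-I and MDA5 carry signalling domains with which they engage MAVS, a protein anchored in the outer mitochondrial membrane. LGP2 lacks those domains and modulates RIG-I and MDA5. MAVS then forms filaments that gather TRAF ubiquitin ligases and the kinases TBK1 and IKK-epsilon, which activate IRF3 and IRF7 and so switch on interferon genes. In many cell types the sensors are themselves interferon-stimulated genes, whose promoters often carry an interferon-stimulated response element (ISRE), a short DNA motif through which interferon signalling acts.

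Promoter sequence was looked up first, because 5 of these genes moved together after IFN-beta. In the set of RefSeq promoter sequences used here (GRCm38.p6), 7 of the 9 genes were matched by symbol, with 8 promoter windows between them. Rnf125 and Dhx58 had no window in that set, although RefSeq does place both genes, so their promoters were not read. The window taken was the 250 bases before the annotated start. A pair of GAAA repeats with 2 bases between them (GAAANNGAAA, either strand), the core of an ISRE, stood in 1 of the 7 genes, Ddx60, in which it occurred 2 times on the gene's own strand. These copies lay 53 to 44 and 19 to 10 bases before the start. The same letters occurred in 2.98% of all 32851 promoter windows of this length, and in 3.46% of their 27025 genes. They occurred in 11.6% of the 544 windows of genes that were called higher here, which covers 416 of those 574 genes. Among windows of tested genes not called the share was 2.14%. With a spacer of 1 base (GAAANGAAA), a form added after the sequences were read, there was again 1 gene, Ddx58, with a copy 60 to 52 bases before its start. This form occurred in 3.13% of all genes and 2.68% of all windows (4.23% for genes called higher, 2.03% for tested genes not called). The palindrome TTCNNNGAA is the core of a GAS element, another interferon-responsive motif. It stood in 1 of the 7 genes, Nlrx1, at 1 place that both of its overlapping windows hold. It occurred in 2197 of all 27025 genes and in 7.02% of all windows (8.46% for genes called higher, 5.9% for tested genes not called). The windows of Ddx60 (chr8:61927837-61928086, plus strand) and Ddx58 (chr4:40239826-40240075, minus strand) are printed 5′ to 3′ because they hold the GAAA pairs, which are in capitals. The window of Mavs (chr2:131233813-131234062, plus strand) is printed beside them as a gene that was not called and holds none of the 3 motifs.
Ddx60: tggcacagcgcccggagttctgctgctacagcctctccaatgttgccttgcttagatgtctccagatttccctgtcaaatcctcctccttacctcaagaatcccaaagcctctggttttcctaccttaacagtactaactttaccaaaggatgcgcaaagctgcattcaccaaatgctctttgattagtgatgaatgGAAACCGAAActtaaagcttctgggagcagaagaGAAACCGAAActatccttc
Ddx58: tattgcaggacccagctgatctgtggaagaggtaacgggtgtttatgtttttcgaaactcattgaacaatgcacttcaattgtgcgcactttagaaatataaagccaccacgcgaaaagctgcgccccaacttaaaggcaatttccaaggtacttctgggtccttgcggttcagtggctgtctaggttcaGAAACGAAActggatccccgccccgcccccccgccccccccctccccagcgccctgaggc
Mavs: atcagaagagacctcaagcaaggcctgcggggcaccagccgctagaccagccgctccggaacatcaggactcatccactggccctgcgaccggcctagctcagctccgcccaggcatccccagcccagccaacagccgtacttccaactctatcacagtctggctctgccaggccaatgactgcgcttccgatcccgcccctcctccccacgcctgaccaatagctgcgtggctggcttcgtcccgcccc
The windows of Ifih1, Rnf135 and Traf3 held none of these motifs either. A match is a string of letters, not a measured binding site, and no match says only that the letters are not in this window.

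The sequencing depth was 18528685 and 24817342 gene counts in the untreated libraries and 18901845 and 20714161 in the IFN-beta libraries. Levels are given as CPM (counts scaled to a library of 1e+06 counts, with TMM factors) and are not corrected for gene length, so they are compared between libraries and not between genes. Of 12128 tested genes, 574 were called higher after IFN-beta (4.73%) and 60 lower (0.495%), by edgeR's quasi-likelihood test (threshold 0.05 after Benjamini-Hochberg adjustment). These counts were 1885 and 1728 without untreated replicate 2, and the lower count was 24 when IFN-beta replicate 1 was left out and 227 when untreated replicate 1 was. Over all tested genes the median log2 fold change was -0.019. The 10 fibroblast markers summed to 7086 to 7953 CPM untreated and 7357 to 7841 CPM treated. Most of this sum came from S100a4 (2393 to 3920 CPM) and Vim (2283 to 2888 CPM). Dcn stood at 19.4 to 40.9 CPM and Lum at only 1.01 to 4.21 CPM. With all libraries and the default filter, none of the 10 was called by edgeR, DESeq2 or limma-voom (2 had an unadjusted p under 0.05). Pdgfra passed as lower when no count filter was used (edgeR adjusted p = 0.00315) and when untreated replicate 2 (2.45e-11) or IFN-beta replicate 1 (0.0446) was left out, and Col1a2 as higher when untreated replicate 2 was (0.00871). Leukocyte markers (12 found) summed to 18.2 and 23.5 CPM untreated and 16.9 and 22.5 CPM treated, with Cd3e at 0 and none of the 5 tested called by edgeR, DESeq2 or limma-voom with all libraries and the default filter (1 had an unadjusted p under 0.05). Lyz2 passed as lower when no count filter was used (edgeR adjusted p = 0.000877) and when untreated replicate 2 (1.57e-10) or IFN-beta replicate 1 (0.000534) was left out. Endothelial markers (6 found) summed to 0.936 and 1.06 CPM untreated and 3.14 and 2.02 CPM treated. Cdh5, which passed the count filter only through its treated libraries, was called higher. That call was lost in 1 of 11 alternatives, the fit without IFN-beta replicate 1. Kdr had 10 and 18 counts untreated and 32 and 20 treated, and was tested and not called (edgeR adjusted p = 0.177). Cdh5 and Kdr both had an unadjusted p under 0.05. Tek had 5 and 2 counts untreated and 0 and 0 treated, and Pecam1 had 1 and 2 untreated and 0 and 1 treated. Emcn and Tie1 were at 0. The part of these 6 markers in the results below was not tested. Among 6 markers of plasmacytoid dendritic cells, cells known for high interferon output, Bst2 was called higher, Tcf4 was not, Siglech had 2 counts in 1 untreated library and 0 in the others, and Ly6d had 0. Bst2 is itself an interferon-stimulated gene. Epithelial markers (6) summed to 1.02 CPM or less in every library. The 6 muscle and nerve markers summed to 29.8 and 21.0 CPM untreated and 24.7 and 22.5 CPM treated. Most of this came from Map2 (16.2 to 25.1 CPM), with Tubb3 at 3.53 to 4.82 CPM, while Myod1, Myog and Rbfox3 were at 0. Neither of the 2 tested, Map2 and Tubb3, was called or had an unadjusted p under 0.05.

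Of the 9 genes, 5 were called higher (Ddx58, Ifih1, Dhx58, Ddx60 and Rnf135), 0 were called lower, 2 were tested and not called (Mavs and Traf3), and 2 had too few counts to be tested (Rnf125 and Nlrx1). The background is 4.73% of tested genes called higher and 0.495% called lower. Both treated libraries stood above both untreated ones in 5 of the 7 tested members, against 23.9% of all tested genes, and below them in 0 of the 7, against 26.8%. The 2 members with both treated libraries below, Rnf125 and Nlrx1, were not tested and are not part of these shares. Dhx58 and Ddx60 passed the filter on low counts only through their IFN-beta libraries, so they had to differ, and the other 5 tested genes passed it in all 4 libraries. The count of 5 was the same under each of the 12 alternatives that were run. At an unadjusted p under 0.05, 0 of the 7 tested members were lower, and DESeq2 and limma-voom also called 0 of these members lower. In bulk RNA, more cells with a transcript and more transcript per cell cannot be told apart.

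**Figure D1:**
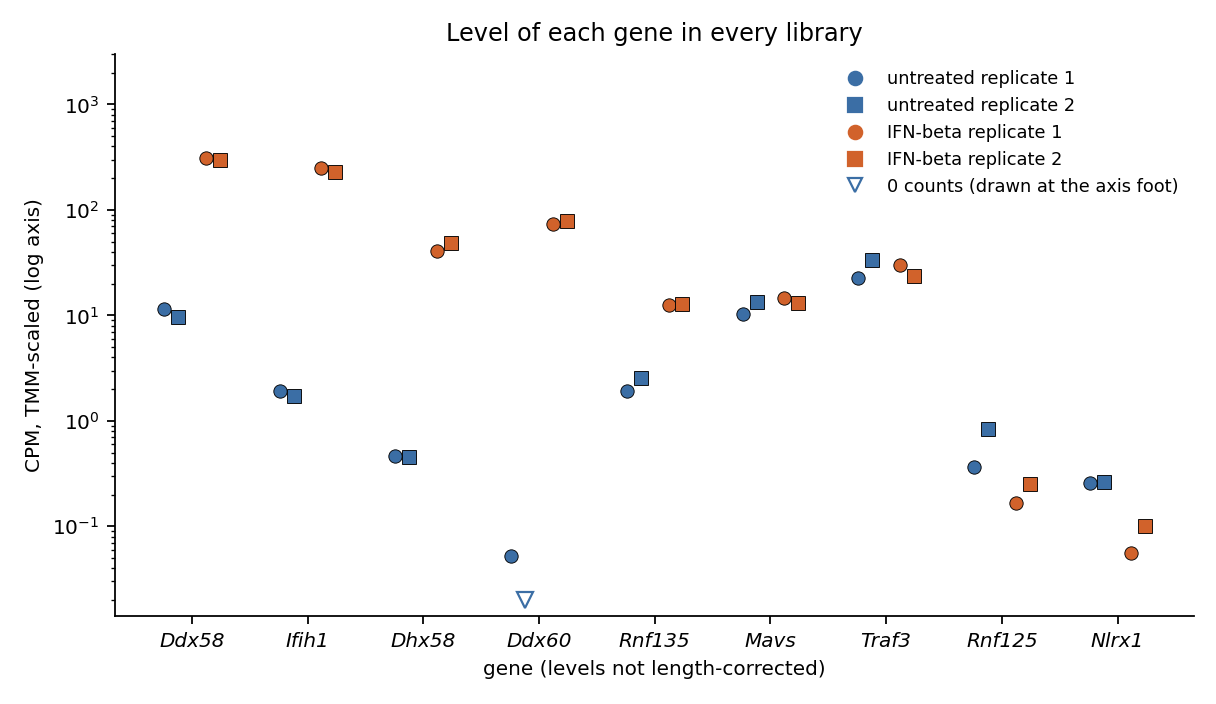
CPM of each of the 9 genes in every library, on a log axis, with untreated libraries in blue and IFN-beta libraries in orange. The treated libraries of Ddx58, Ifih1, Dhx58, Ddx60 and Rnf135 sit above both untreated ones, those of Mavs and Traf3 mix with them, and those of Rnf125 and Nlrx1 sit below them at under 1 CPM.

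Ddx58 encodes RIG-I, which recognises short double-stranded RNA with a triphosphate end. It had 219 and 254 counts in the untreated libraries and 5595 and 5956 after IFN-beta, which is 11.4 and 9.63 CPM against 313.6 and 300.1 CPM. Both treated libraries were far above both untreated ones, and replicates of a group differed little beside that gap. The mean went from 10.5 ± 1.24 to 307 ± 9.53 CPM (SD, n = 2), a fold change of 29.3 (log2 4.87 ± 0.15 SE, edgeR adjusted p = 2.0e-08). Taken library by library, the 4 treated-to-untreated ratios ran from 26.4 to 32.6.

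Ifih1 encodes MDA5, which binds long double-stranded RNA. Its counts were 37 and 45 untreated and 4448 and 4553 treated, or 1.92 and 1.71 CPM against 249 and 229 CPM. The groups did not overlap, and the relative rise was larger than that of Ddx58 in every pair of libraries, a difference between the 2 genes that was not tested. The fold change was 132 (log2 7.05 ± 0.18 SE, edgeR adjusted p = 4.8e-09), with library-by-library ratios of 119 to 146.

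Dhx58 encodes LGP2, the receptor without signalling domains. It was close to silent without IFN-beta, at 9 and 12 counts, and had 732 and 967 counts with it. In CPM the untreated libraries stood at 0.468 and 0.455 and the treated ones at 41.0 and 48.7. The treated libraries were again both above the untreated ones, and differed from each other by a ratio of 1.19. The fold change was 96.2 (log2 6.59 ± 0.24 SE, edgeR adjusted p = 4.0e-08), and the library-by-library ratios ran from 87.7 to 107. On these few untreated counts, the pooled ratio of 97.9 had a 95% exact interval of 63.8 to 159 (counting error only), which overlaps that of Ifih1, 107 to 167.

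Ddx60, a helicase related to the yeast Ski2 protein that has been described as a cofactor of RIG-I, was nearly absent without IFN-beta. It had 1 and 0 counts untreated and 1301 and 1560 treated, or 72.9 and 78.6 CPM after IFN-beta. Pooled and scaled for depth, the ratio was 3462, with a 95% exact interval of 620.9 to 136800 that covers counting error only. The fitted log2 fold change was 11.40 ± 0.35 SE (edgeR adjusted p = 1.9e-08), but its size depends on the prior count because a single untreated read carries it.

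The make-up of the sensor reads changed with the cytokine. Summed, the 4 helicase genes went from 12.8 ± 1.44 to 667 ± 14.1 CPM (SD, n = 2), which is 52.1-fold. Of the reads of these 4 genes, Ddx58 took 82.3% and 81.7% in the untreated libraries and 46.3% and 45.7% in the treated ones. Ifih1 took 13.9% and 14.5% untreated and 36.8% and 34.9% treated. Ddx60 went from 0.376% and 0% to 10.8% and 12.0%, and Dhx58 from 3.38% and 3.86% to 6.06% and 7.42%. For each of the 4 genes the untreated and treated shares did not overlap, but shares of the same total move together. The untreated shares of Dhx58 rest on 9 and 12 counts and those of Ddx60 on 1 and 0. With 2 libraries a group such separation is common. In CPM, both treated libraries stood above both untreated ones in 23.9% of all tested genes and below them in 26.8%. For 100 reads of Ddx58 there were 16.9 and 17.7 reads of Ifih1 in the untreated libraries and 79.5 and 76.4 in the treated ones, a 4.51-fold higher ratio. For 100 reads of Ifih1 there were 24.3 and 26.7 reads of Dhx58 untreated and 16.5 and 21.2 treated. These are shares of reads, which longer transcripts raise, and not of molecules, but length drops out of the change within a pair. With 2 libraries against 2, an exact two-sided permutation test cannot go below p = 0.333, so no test of these shares was run.

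**Figure D2:**
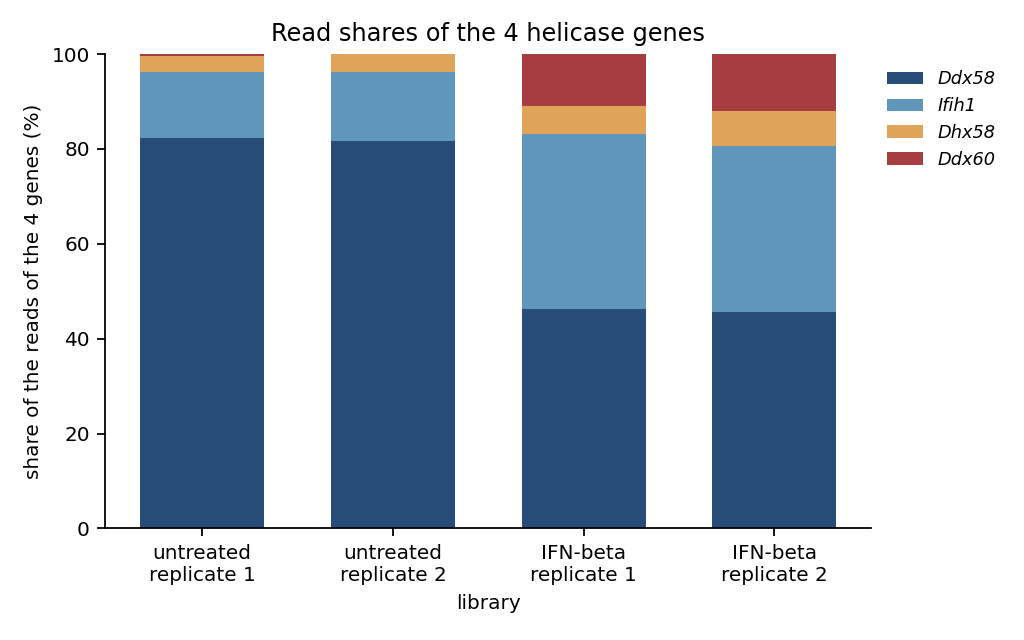
Share of the reads of Ddx58, Ifih1, Dhx58 and Ddx60 taken by each gene, as stacked bars per library. Ddx58 holds 82.3% and 81.7% of the bar in the untreated libraries and 46.3% and 45.7% in the IFN-beta libraries, where Ifih1 and Ddx60 take more.

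Among the 4 regulators, Rnf135 rose, Traf3 did not pass the test, and Rnf125 and Nlrx1 were under the count filter. Rnf135 encodes Riplet, which attaches ubiquitin chains to RIG-I bound to RNA and so promotes its signalling. It had 37 and 67 counts untreated and 224 and 254 treated, or 1.92 and 2.54 CPM against 12.6 and 12.8 CPM. Both treated libraries were above both untreated ones, although the untreated pair differed by a ratio of 1.32. The fold change was 5.61 (log2 2.49 ± 0.22 SE, edgeR adjusted p = 4.3e-05), and the reads of Rnf135 for 100 of Ddx58 went from 16.9 and 26.4 to 4 and 4.26 reads.

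Rnf125 encodes a ligase that marks RIG-I, MDA5 and MAVS for degradation. It had 7 and 22 counts untreated and 3 and 5 treated, or 0.364 and 0.834 CPM against 0.168 and 0.252 CPM. The treated libraries were both below the untreated ones. Pooled and scaled for depth, the ratio of treated to untreated was 0.334 (95% exact interval 0.132 to 0.749, counting error only), and the untreated replicates alone differed by a ratio of 2.29. Without a count filter the gene could be tested and did not pass (log2 -1.52 ± 0.69 SE, edgeR adjusted p = 0.204). The log2 ratio was -0.78 without untreated replicate 2.

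Mavs, the adaptor to which both signalling receptors couple, was not called. It had 200 and 353 counts untreated and 258 and 262 treated, or 10.4 and 13.4 CPM against 14.5 and 13.2 CPM. The groups overlapped, since 1 treated library was below the higher untreated one. The log2 fold change was 0.21 ± 0.19 SE (edgeR adjusted p = 0.593), and over the alternatives it ran from 0.067 to 0.41, with adjusted p-values of 0.0856 and above. Relative to the sensor, there were 91.3 and 139 Mavs reads for 100 of Ddx58 in the untreated libraries and 4.61 and 4.4 in the treated ones.

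Traf3, the ligase that links MAVS to TBK1, had 435 and 883 counts untreated and 531 and 470 treated, or 22.6 and 33.5 CPM against 29.8 and 23.7 CPM. Both treated libraries lay between the untreated ones. The log2 fold change was -0.075 ± 0.20 SE (edgeR adjusted p = 0.885), smaller than the spread within the untreated pair, whose members differed by a ratio of 1.48. Its sign turned when a library was left out, to 0.24 without untreated replicate 2 and 0.085 without IFN-beta replicate 2.

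Nlrx1, a mitochondrial NOD-like receptor reported to bind MAVS and restrain it, was hardly detected. It had 5 and 7 counts untreated and 1 and 2 treated, or 0.260 and 0.265 CPM against 0.0560 and 0.101 CPM. Both treated values were lower, but the pooled ratio of 0.303 had a 95% exact interval of 0.0548 to 1.12, so a difference was not detectable at this depth. In the fit with no count filter it was at log2 -1.65 ± 1.11 SE (edgeR adjusted p = 0.517).

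**Figure D3:**
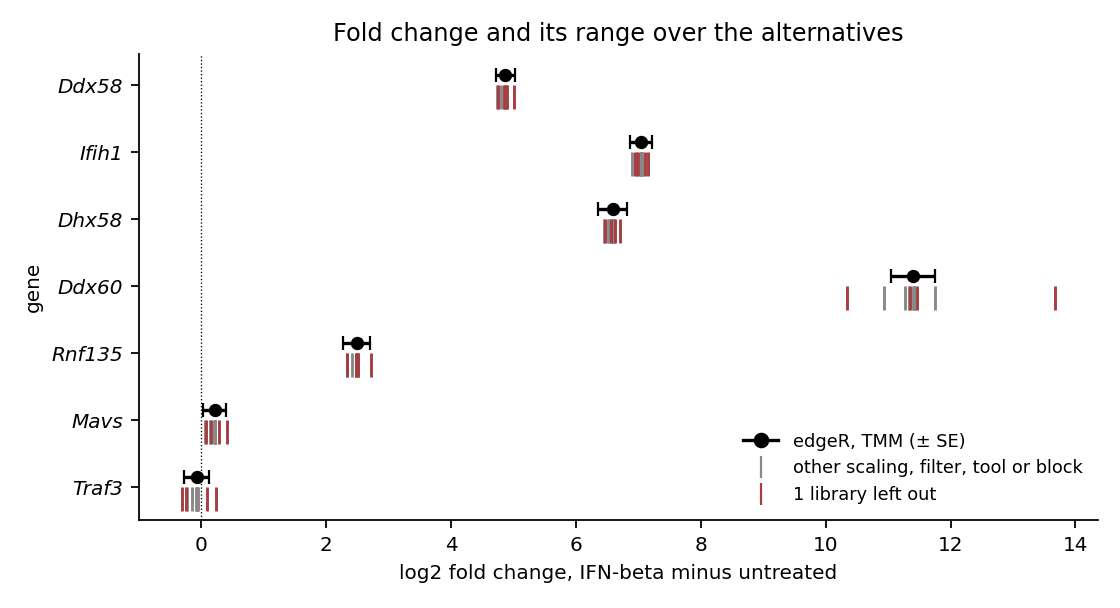
Log2 fold change of the 7 tested genes with its standard error (black), over the values from other scalings, filters, tools and the replicate block (grey ticks) and from fits with 1 library left out (red ticks). Ddx58, Ifih1, Dhx58 and Rnf135 stay within 0.3 of their value or less, the ticks of Ddx60 spread from 10.3 to 13.7, and those of Traf3 lie on both sides of 0.

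The rest of the pathway was looked at through lists of known partners, which were chosen with earlier results of these data known. Of 102 other pathway genes, 101 were found, 86 could be tested, 12 rose (14%, beside 4.73% of all tested genes) and 1 fell, with a median log2 fold change of 0.067. Without untreated replicate 2 these counts were 26 and 8. Of the 12 that rose in the fit of all libraries, Isg15 and Irf7 passed the count filter only through their treated libraries, so they had to differ. Among the 28 tested modifiers and partners of RIG-I and MDA5, 4 rose and 1 fell, with a median of 0.016. Trim25, a ubiquitin ligase of RIG-I, went from 10.7 ± 2.36 to 133 ± 1.49 CPM (SD, n = 2; log2 fold change 3.63 ± 0.17 SE, edgeR adjusted p = 3.0e-07). Zc3hav1, the zinc-finger antiviral protein gene, had 580 and 987 counts untreated and 3887 and 4209 treated (log2 2.67). Adar, which edits double-stranded RNA and so limits its detection by MDA5, had 409 and 780 counts untreated and 3372 and 3473 treated (log2 2.83). Ankrd17, an ankyrin repeat protein described as a partner of these sensors, rose by less (log2 0.58, edgeR adjusted p = 0.0298), and it was no longer called with upper quartile (0.0540) or total library size scaling (0.0796) or without either IFN-beta library (0.363 and 0.0792). Trim13, a ligase reported to restrain MDA5, was the 1 gene that fell, from 241 and 305 counts to 124 and 142 (log2 -0.77, edgeR adjusted p = 0.0368, but 0.342 and 0.209 without IFN-beta replicates 1 and 2).

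Among 27 tested partners of MAVS at mitochondria, 3 rose and 0 fell, with a median of 0.017 (at an unadjusted p under 0.05, 2 were lower, while DESeq2 and limma-voom called 0 lower). Ifit3, described as a bridge between MAVS and TBK1, had 21 and 25 counts untreated and 21599 and 26049 treated (log2 10.28). Isg15, the ubiquitin-like modifier that is attached to MDA5, had 8 and 3 counts untreated and 2047 and 2341 treated (log2 8.87, but 9.95 and 8.11 when untreated replicate 1 or 2 was left out). It passed the count filter only through its treated libraries. March5, a mitochondrial ubiquitin ligase that clears MAVS aggregates, went from 80.6 ± 3.96 to 184 ± 6.78 CPM (log2 1.19 ± 0.12 SE, edgeR adjusted p = 0.00015). The mitochondrial fusion gene Mfn2 (log2 0.24) and the autophagy gene Atg5 (-0.32) did not pass.

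Downstream of MAVS, 3 of 29 tested genes rose and 0 fell, with a median of 0.10 (at an unadjusted p under 0.05, 2 were lower, while DESeq2 and limma-voom called 0 lower). Irf7 had 0 and 3 counts untreated and 1728 and 1745 treated, a pooled ratio of 1401 with a 95% exact interval of 479 to 6797. It passed the count filter only through its treated libraries, and its fitted log2 value was 9.62 or 13.78 when untreated replicate 1 or 2 was left out. The kinase adaptor gene Azi2 (log2 0.62, edgeR adjusted p = 0.0155) and the deubiquitinase gene Otud5 (0.68, 0.0253), whose product removes ubiquitin from TRAF3, rose by small amounts. Both calls were lost without either IFN-beta library, with adjusted p-values of 0.116 and 0.109 for Azi2 and 0.0510 and 0.183 for Otud5, and Otud5 also under total library size (0.0730). Irf3 was at -0.043 ± 0.16 SE (edgeR adjusted p = 0.917), and at 0.030 without untreated replicate 2. The kinase genes did not pass in the fit of all libraries, with Tbk1 at 0.43 ± 0.14 SE (edgeR adjusted p = 0.124) and Ikbke at 1.00 ± 0.29 SE (0.0943). Tbk1 passed without untreated replicate 1 (0.0044) or 2 (0.0379). Ikbke passed when untreated replicate 2 was left out (0.0020) and when no count filter was used (0.0121).

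Of the genes that MAVS signalling is known to switch on, the interferon genes themselves were at or near 0 in every library. Ifnb1 had 1 and 1 counts untreated and 1 and 0 treated. Of the 14 genes of that list in the tables, 8 had 0 counts in all 4 libraries, which allows up to 0.0658 CPM over the untreated pair and 0.0796 CPM over the treated pair. These were Ifna1, Ifna2, Ifna4, Ifna5, Ifne, Ifnl2, Ifnl3 and Il12b. The limit holds for uniquely aligned reads only, and near-identical genes such as the Ifna family can lose reads to the 29.8% to 37.2% of records that were not unique. Cxcl10 and Il6 were the 2 that could be tested, and both rose (log2 10.80 and 4.67). The chemokine gene Ccl5 stood at 3 and 4 counts untreated and 4 and 6 treated.

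Relatives of these 9 genes were set beside them. Of 51 other tested DEAD and DEAH box helicase genes, 1 rose (1.96%) and 0 fell, with a median log2 fold change of 0.12 and a range from -0.65 to 1.54. That gene was Ddx24, a nucleolar helicase described as a negative regulator of RIG-I-like receptor signalling, with 1255 and 1939 counts untreated and 3841 and 3731 treated (log2 1.54 ± 0.14 SE, edgeR adjusted p = 4.2e-05). Ddx26b (-0.65, adjusted p = 0.0956) and Ddx50 (-0.46, 0.101) did not pass in the edgeR fit of all libraries. Both passed as lower under total library size (0.0419 and 0.0334), when no count filter was used (0.0228 and 0.0293) and when untreated replicate 2 was left out (0.000265 and 6.54e-05, all edgeR adjusted p-values). At an unadjusted p under 0.05, 3 helicase genes were lower, and DESeq2 and limma-voom called 0 lower. Without untreated replicate 2 the same list gave 14 higher and 4 lower. Of 9 other tested genes named for TRAF, which include Traf3ip1 and Traf3ip2, 1 rose. It was the TRAF-type zinc finger gene Trafd1 (log2 2.59), whose product is known as a feedback inhibitor of innate signalling. None of Traf1, Traf2, Traf4, Traf5, Traf6 and Traf7 was called in the edgeR fit of all libraries. Traf2, Traf5 and Traf6, which also bind MAVS, were at 0.15, 0.59 and 0.16 and did not pass, although Traf5 passed without untreated replicate 2 (edgeR adjusted p = 0.0102). Of 7 other NLR genes tested, 3 rose (42.9%, beside 4.73% of all tested genes), and 9 more had too few counts to be tested. The 3 were Nlrc5, the activator of MHC class I genes (log2 2.89), the peptidoglycan sensor Nod1 (2.57) and Naip1 (3.75, from 1 and 3 counts to 22 and 25). Naip1 passed the count filter only through its treated libraries, and its log2 value was 4.42 when untreated replicate 2 was left out.

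**Figure D4:**
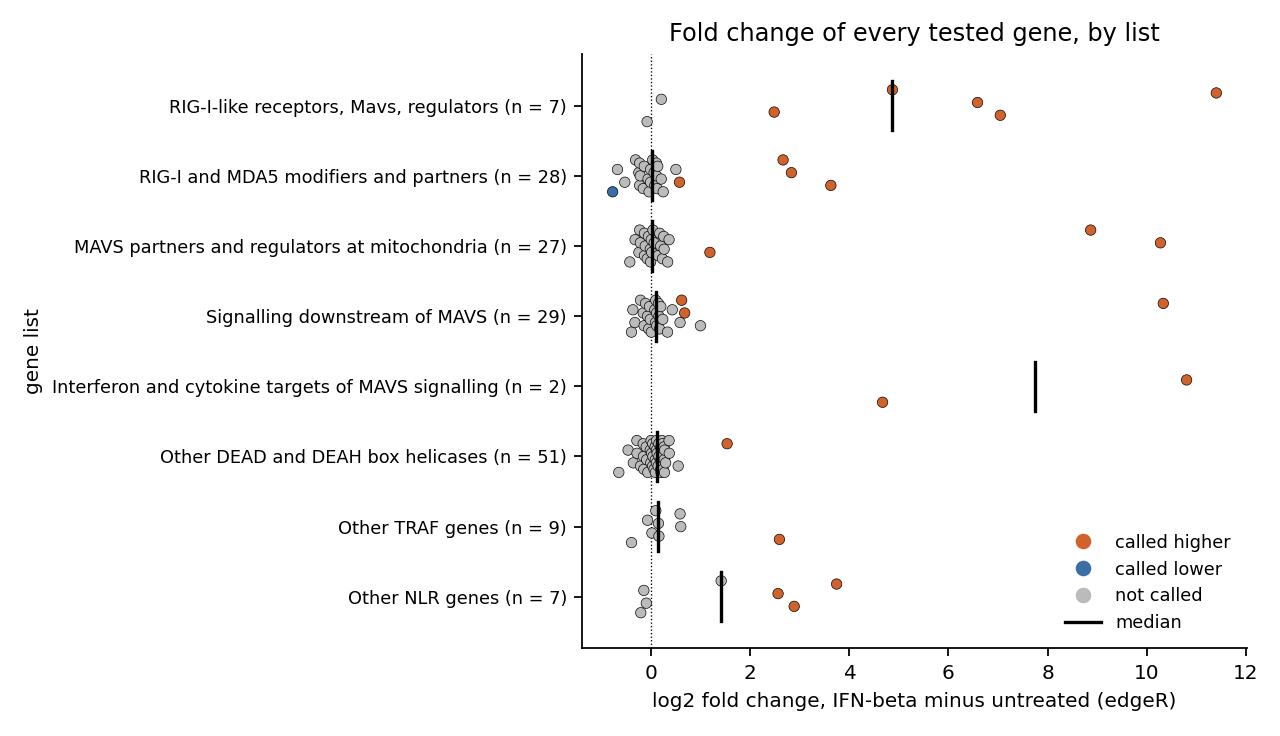
Log2 fold change of every tested gene, one point a gene, in the followed genes (top) and in 7 lists of partners and relatives. Points called higher are orange, called lower blue and not called grey, and a black bar marks each median, which lies between 0.016 and 0.15 for 5 of the 7 lists, at 1.42 for the other NLR genes and at 7.74 for the interferon and cytokine targets (2 genes).

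For each gene that rose, the called genes with the nearest pattern were found by Euclidean distance between mean-centred log2 CPM (prior count 2) over the 4 libraries, among called genes with a mean of 1 CPM or more. For Ddx58 the near genes included Slfn2 (distance 0.164) and Lgals3bp (0.208). Slfn2 went from 0.624 and 0.607 CPM to 21.4 and 21.5 CPM. Ifih1 lay nearest to Tap1, the peptide transporter gene (0.193), then F830016B08Rik (0.312) and Oas2 (0.335). Dhx58 lay nearest to Hap1 (0.170), Oas1b (0.299) and the immunoproteasome gene Psmb8 (0.381), and Ddx60 to Gm4951 (0.268), Gbp3 (0.468) and Tgtp2 (0.560). Of these near genes, F830016B08Rik, Oas2, Hap1, Oas1b, Gm4951 and Tgtp2 passed the count filter only through their treated libraries. Oas2 and Tgtp2 had 0 CPM in both untreated libraries, and Ddx60 and Gm4951 each had 0.052 and 0 CPM. All distances that involve these genes, with all those of Ddx60, therefore depend on the prior count. F830016B08Rik, Hap1 and Oas1b, at 0.114 to 0.208 CPM untreated, are low enough for the prior count to matter too. The fitted log2 fold change was 11.26 for Oas2 but 7.05 for Ifih1. Rnf135 lay nearest to Myd88, the Toll-like receptor adaptor gene (0.0731), then Kcna4 (0.144) and Btc (0.183).

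The nearest tested genes on each side of the 5 risers were also read, chosen by position in the RefSeq gene order and outside the naming rule. Genes that were not tested were passed over and distances were not measured, so these genes need not be adjacent to the risers. Of the 10 nearest tested neighbours, 1 on each side of each riser, 0 were called by edgeR or limma-voom, 2 had an unadjusted p under 0.05, and DESeq2 called 1. Their log2 fold changes ran from -0.21 to 1.10. Topors and Aco1, the nearest tested to Ddx58, were at 0.18 and 0.15. Psmd14 and Gca, the nearest tested to Ifih1, were at -0.057 and 1.10. Gca rested on 11 and 12 counts untreated and 22 and 19 treated (edgeR adjusted p = 0.193). Kat2a, the nearest tested after Dhx58, was at 0.56 (edgeR adjusted p = 0.0865, DESeq2 adjusted p = 0.0498). RefSeq also places a long noncoding RNA over Ifih1 (Gm39839), over Dhx58 (Gm38483) and over Traf3 (4930595D18Rik). None of these 3 has a row in the count tables, and without a stated strand setting their reads cannot be told apart from those of the gene they overlap.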

How the data were processed

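RNA-seq of MEFs was used in 2 groups of 2 libraries, grouped by the sample labels alone. The authors deposited raw read counts per gene symbol, 1 table per library, not pooled. The labels' protocols state that RNA from Trizol extraction went into TruSeq RNA libraries. The submitters' processing notes name TopHat2 2.0.13, HTSeq 0.7.2 and build mm9, while annotation and strand setting are not given in the sources used here. HTSeq leaves out reads without a unique alignment, which per the deposited count tables were 29.8% to 37.2% of records. The 5 summary lines, which hold these reads and 57.3% to 61.3% of records in all, stayed out of library sizes.

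All genes were fitted with edgeR 4.0.16 in R 4.3.3 (quasi-likelihood F test, TMM, group as the only term, default filter with minimum count 10 and minimum total 15), with Benjamini-Hochberg adjustment over all 12128 tested genes. The SE is the log2 fold change divided by the square root of F. Depth gives the floor of 3 counts, 0.0658 CPM over the untreated pair. Intervals are 95% exact (binomial, conditional on the summed counts) and cover counting error only. The procedure was tested on simulated data. The 9 genes and the lists were chosen with earlier results of these data known. Named were the 9 genes, up to 5 called genes and at least the 3 smallest p-values of each list (the text gives part of these), 5 signalling genes and Ifnb1, and the 3 nearest patterns of each called gene; values of a few genes under this rule are not reported here. Alternatives were 3 other scalings, 2 other filters, DESeq2 1.42.0, limma-voom (limma 3.58.1), a replicate block and each library left out. Promoter windows came from RefSeq (GRCm38.p6), matched by symbol.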

Additional observations from a re-analysis of the deposited data

How the results depend on the processing

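The calls of Ddx58, Ifih1, Dhx58, Ddx60 and Rnf135 as higher held under all 12 alternatives, and Mavs and Traf3 passed under none. The number of called genes among the 9 stayed at 5 higher and 0 lower in each. Genes called higher overall numbered 863 without a count filter and 470 to 1885 with 1 library left out. Genes called lower numbered 350 with total library size, 128 with upper quartile scaling, 381 without a count filter, 103 with DESeq2 and 24 to 1728 with 1 library left out. Other pathway genes ranged from 9 to 26 higher and 0 to 8 lower with 1 library left out, and 2 were lower without a count filter. Other DEAD and DEAH box helicases ranged from 1 to 14 higher and 0 to 4 lower, and 2 were lower with total library size and 2 without a count filter. The upper ends come from the fits without untreated replicate 2, in which 1 group holds a single library that is assumed to vary like the other group. With 1 library left out, log2 fold changes took both signs for Traf3 (-0.30 to 0.24), Irf3 (-0.086 to 0.030) and the markers Lyz2 (-1.99 to 0.027), Csf1r (-0.24 to 0.40) and Map2 (-0.35 to 0.31), and Csf1r was also at -0.033 with total library size. The cause was not tested. Total library size moved the median log2 value of all genes from -0.019 to -0.16, and Mavs to 0.067. With a prior count of 0.5 in place of 2, the difference of mean log2 CPM was 10.79 for Ddx60, 6.53 for Dhx58 and -1.52 for Nlrx1.

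With the replicate block 692 genes were higher and 155 lower, and the block changed no call among the 9 genes. Of the other genes named, Ikbke passed as higher (adjusted p = 0.0235) and Pdgfra (0.0429) and Lyz2 (0.0079) as lower with the block. Same-numbered libraries deviated from their group means with a correlation of -0.0334 across genes. The labels do not state whether these libraries were paired, and a correlation from 1 difference per group cannot decide it. Depth limits Rnf125, Nlrx1 and Ddx60 without IFN-beta, which rest on 29, 12 and 1 pooled untreated counts.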
